A study of Mus musculus with 9 samples.

Results

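Genes that mark the progenitors and young precursors of the ventral telencephalon were examined in the striatum of E17.5 mouse embryos lacking Ebf1 in part of their cells. They are Dlx1, Dlx2, Dlx5 and Dlx6, the antisense transcript Dlx6os1, the homeobox genes Gsx1 and Gsx2, and Hes5 and Dll1 of the Notch pathway. These 9 genes were listed by symbol and found among the 44886 Ensembl genes of the count files through GENCODE M21. The symbol Dlx6os1 matched 2 identifiers, so that 10 rows of the files belong to the 9 genes. The second row is a short RNA of 146 bp at the 5′ end of the antisense gene, which shares 71.2% of its bases with it. It is described once, beside Dlx6os1, and is not counted among the 9.

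RNA came from the dissected striatum of 9 embryos on a C57BL/6 background, each sequenced as 1 library of polyadenylated RNA, 3 for each of 3 genotypes. The embryos labelled Islet1Cre;Ebf1fl/- and Dlx5/6::Cre;Ebf1fl/- carried 1 floxed and 1 null allele of Ebf1 and a Cre transgene or knock-in. They came from crosses of Ebf1+/-;Islet1Cre/+ or Ebf1+/-;Dlx5/6::Cre males with Ebf1fl/fl females. The third genotype is labelled Control with no allele named; the methods of the study describe heterozygous embryos as controls, which in these crosses would still hold at least 1 floxed allele. Islet1Cre acts in direct pathway striatal projection neurons (dSPN) and cholinergic interneurons, whereas Dlx5/6::Cre acts in all striatal projection neurons (SPN) and interneurons, from the subventricular zone outwards. The Islet1Cre line was kept on B6D2F1/J, unlike the label of the samples. Dlx5/6::Cre is named after the members Dlx5 and Dlx6; whether the transgene adds reads to either gene was not tested.

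Counts on genes totalled 16.5 to 41.5 M per library, with the smallest total in Islet1Cre;Ebf1fl/- replicate 3. Ebf1 itself had normalized counts of 7945 to 14210 in the controls and 11770 to 15340 in the mutants, so its count over the whole gene does not check the genotypes. Libraries Control replicate 3 and Islet1Cre;Ebf1fl/- replicate 3 held both Xist and Y-linked transcripts, with 12552 and 4062 counts of Xist beside 114 and 534 counts of Eif2s3y, unlike the other 7. Control replicate 2 had 4 counts of Xist and 1739 of Eif2s3y, whereas every Dlx5/6::Cre;Ebf1fl/- library had 0 of Eif2s3y. Sex was not a factor in the fits. The library labelled Dlx5/6::Cre;Ebf1fl/- replicate 1 stood apart from the rest. In it 399 of 16368 tested genes were more than 2-fold above the highest of the other 8 libraries, against 2 to 16 genes for each other library, and 235 were more than 2-fold below the lowest, against 12 to 74. Results that rest on this library are given with and without it.

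In the ventral telencephalon, dividing progenitors line the ventricle and give rise to precursors that leave the zone and become GABAergic neurons of the striatum and interneurons. Gsx2 and Gsx1 are homeodomain factors of the ventricular zone, and Gsx2 acts early to give the lateral ganglionic eminence its identity. Dlx1 and Dlx2 are switched on in precursors of the subventricular zone, and Dlx5 and Dlx6 are switched on later in the same lineage. The Dlx genes lie in convergent pairs that share enhancers between them, and Dlx6os1 (also known as Evf2) is transcribed from such an enhancer region. In Notch signalling a ligand on 1 cell, such as Dll1, triggers the cleavage of the receptor on its neighbour, whose intracellular part joins Rbpj in the nucleus to switch on repressors such as Hes5, which hold the neighbour in the progenitor state.

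On GRCm38, Dlx1 (chromosome 2, 71528113 to 71533981, plus strand) and Dlx2 (71543408 to 71546754, minus strand) face each other across 9426 bp. Dlx6 (chromosome 6, 6863334 to 6868568, plus strand) and Dlx5 (6877805 to 6882085, minus strand) face each other across 9236 bp. Dlx6os1 (6820189 to 6871592, minus strand) runs antisense across the whole of Dlx6, but their exons share 0 bp. Gsx1 (147188696 to 147190947) and Gsx2 (75075601 to 75077893) lie far apart on the plus strand of chromosome 5. Hes5 lies on chromosome 4 (154960923 to 154962371, plus strand) and Dll1 on chromosome 17 (15367354 to 15376872, minus strand). All are protein-coding genes except Dlx6os1. Genes on the opposite strand share 31.8% of the exon bases of Hes5 (with Gm20421), 20.5% of those of Dll1 (with A930024N18Rik), 6.2% of those of Dlx1 (with Dlx1as) and 4.4% of those of Dlx6 (with Dlx6os2). The kit keeps the strand of the RNA, whereas the strand setting of the counting is not given in the sources used here.

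RefSeq promoter sequences of GRCm38.p6 were found for 7 of the 9 genes, all but Dlx5 and Dlx6. Motifs were searched on both strands in the 300 bases from 250 before to 50 after each start. They are TGGGAA, the core bound by Rbpj, TAATTA, the core of homeodomain factors such as Dlx and Gsx proteins, CAGCTG, an E-box of proneural factors, and the palindrome of Ebf factors, TCCC and GGGA set 2 bases apart. Of 32851 promoters, 25.6%, 5.29%, 16.3% and 0.904%, respectively, hold at least 1. The 250 bases before the start of Hes5 are printed because they hold TGGGAA or its reverse complement at 2 places, as 3.79% of all promoters do. Those of a start of Dlx6os1 are printed because they hold TAATTA at 2 places, as 0.49% of promoters do. Those of Gsx2 and Gsx1 are printed because the ratio of Gsx2 to Gsx1 was 27.5 in the library that stood apart, against 2 to 3.87 in the others. Capitals mark the motifs, and Gsx2 and Gsx1 have none of the 4.
Hes5, chr4:154960673-154960922, plus strand: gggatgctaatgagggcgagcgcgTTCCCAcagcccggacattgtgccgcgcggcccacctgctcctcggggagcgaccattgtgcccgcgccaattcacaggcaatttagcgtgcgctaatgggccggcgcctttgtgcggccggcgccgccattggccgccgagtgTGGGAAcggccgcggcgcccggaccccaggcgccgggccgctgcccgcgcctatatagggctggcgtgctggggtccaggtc
Dlx6os1, chr6:6869534-6869783, minus strand: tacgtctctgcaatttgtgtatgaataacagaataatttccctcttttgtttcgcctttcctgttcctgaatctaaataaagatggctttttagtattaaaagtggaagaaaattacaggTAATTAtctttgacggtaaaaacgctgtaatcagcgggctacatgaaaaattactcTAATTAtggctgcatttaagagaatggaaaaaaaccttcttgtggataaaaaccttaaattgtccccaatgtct
Gsx2, chr5:75075351-75075600, plus strand: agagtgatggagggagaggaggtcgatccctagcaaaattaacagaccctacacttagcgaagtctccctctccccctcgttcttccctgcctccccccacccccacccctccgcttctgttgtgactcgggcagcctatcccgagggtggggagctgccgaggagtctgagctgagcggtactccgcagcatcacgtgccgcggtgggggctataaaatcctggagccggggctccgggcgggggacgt
Gsx1, chr5:147188446-147188695, plus strand: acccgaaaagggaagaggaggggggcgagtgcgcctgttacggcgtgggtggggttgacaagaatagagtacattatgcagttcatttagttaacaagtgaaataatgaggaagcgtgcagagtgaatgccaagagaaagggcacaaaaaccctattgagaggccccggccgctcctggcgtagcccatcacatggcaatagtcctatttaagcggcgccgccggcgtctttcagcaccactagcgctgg
The matches lie 226 and 82 bases before the start in Hes5, and 130 and 74 bases before it in Dlx6os1, counted to the first base of each match. The printed start of Dlx6os1 also has a CAGCTG match at +21, beyond the printed stretch. Another start of Dlx6os1 has 1 TAATTA match, 1 of 2 starts of Dll1 has a CAGCTG match at −132, and the windows of Dlx1 and Dlx2 hold none of the 4 motifs. No window of the 7 genes holds the Ebf palindrome. A match is a stretch of letters and was not tested for binding.

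The 9 genes covered a wide range of levels in the control striatum. Per kb of exon, normalized counts (counts divided by DESeq2 size factors) were 970 ± 247 for Dlx5, 823 ± 68.4 for Dlx6, 631 ± 134 for Dlx1, 514 ± 96.5 for Dlx6os1 and 477 ± 128 for Dlx2 (SD, n = 3). The Notch genes Hes5 and Dll1 followed at 315 ± 65.8 and 230 ± 5, and Gsx2 and Gsx1 were lowest at 35 ± 4.66 and 12.6 ± 3.63 per kb. The ranges over the 3 controls overlapped between Dlx5 and Dlx6, between Dlx1 and Dlx6os1, between Dlx6os1 and Dlx2 and between Dlx2 and Hes5. They did not overlap between Dlx6 and Dlx1, Hes5 and Dll1, Dll1 and Gsx2, or Gsx2 and Gsx1. Dll1 and Dlx6 varied least among the controls, with coefficients of variation of 2.18% and 8.3%, against 13.3% to 28.7% for the other 7. All 9 genes passed the filter on low counts, although Gsx1 had only 15 to 36 counts per library. Dlx3 and Dlx4, the Dlx genes outside the 2 pairs, had a normalized count of at most 1.079 in any library.

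None of the 9 genes passed an edgeR adjusted p value of 0.05 in any comparison. Against the controls, 159 of 16368 genes (0.971%) passed with Islet1Cre and 392 (2.39%) with Dlx5/6::Cre, and 0 (0%) passed between the mutants, where 844 genes had an unadjusted p value below 0.05 and DESeq2 called 18. At an unadjusted edgeR p value below 0.05 stood 1, 5 and 1 of the 9 genes in these comparisons, in that order, beside 7.93%, 15.5% and 5.16% of all genes, and DESeq2 called 0, 3 and 0 of the 9. Although edgeR called none of them, every mutant embryo had more Dlx1, Dlx5 and Dlx6os1 than every control. The share of all genes with every mutant above every control was not computed. The whole group lay above the controls for 3 of 9 genes in Islet1Cre;Ebf1fl/- (7.83% of all genes did) and for 4 of 9, Gsx2 besides, in Dlx5/6::Cre;Ebf1fl/- (9.63% of all genes did). Both comparisons use the same 3 controls, and for Dlx1, Dlx2, Dlx5 and Dlx6os1 Control replicate 1 was the lowest of the 9 libraries. Dlx1, Dlx5 and Dlx6os1 also varied together over the 9 libraries (Pearson's r of log2 normalized counts 0.88 to 0.99), so they are not independent observations. In whole tissue, more cells of a kind and more RNA per cell cannot be told apart.

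**Figure D1:**
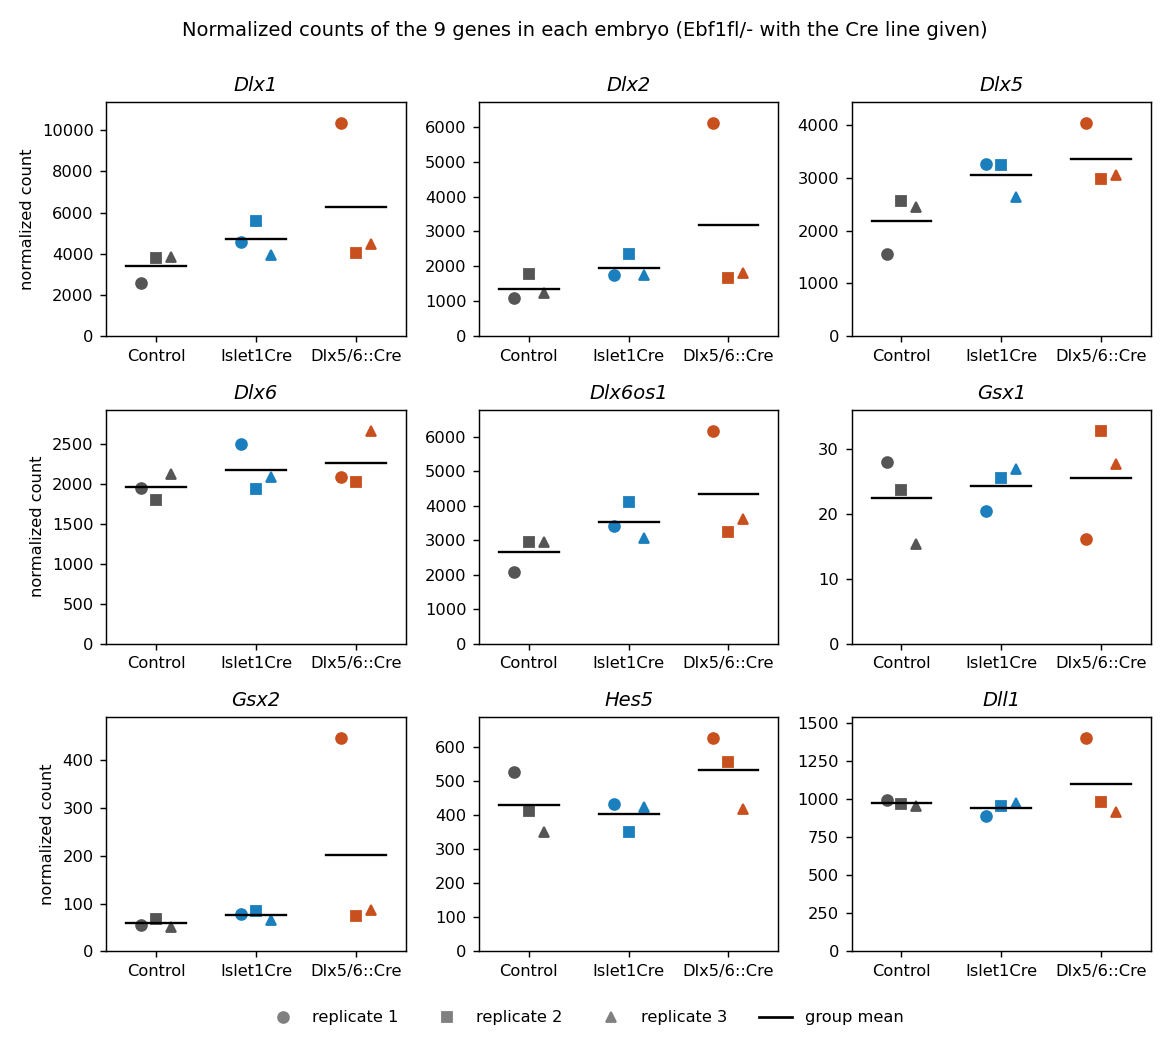
Normalized counts (vertical axes, from 0) of the 9 genes in the 9 embryos, by genotype; marker shapes give the replicate number and black lines the group means. Replicate 1 of Dlx5/6::Cre;Ebf1fl/- is far above all other libraries for Gsx2 (445.8) and Dlx2 (6107), but not for Dlx6 (2081) or Gsx1 (16.19).

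Gsx2 had normalized counts of 56.08, 66.96 and 51.95 in the controls, 78.83, 85.13 and 66.22 in Islet1Cre;Ebf1fl/-, and 445.8, 73.76 and 87.24 in Dlx5/6::Cre;Ebf1fl/- (replicates 1, 2 and 3, as in all triplets). The first Dlx5/6::Cre;Ebf1fl/- library was thus 5.11 times the highest of the other 8, whereas the other mutants lay close to or just above the controls. The log2 fold change in Dlx5/6::Cre;Ebf1fl/- was 1.78 (SE 0.58, 95% interval 0.5 to 3.07, edgeR adjusted p = 0.168), and 0.46 (−0.02 to 0.94, adjusted p = 0.305) without that library. In Islet1Cre;Ebf1fl/- it was 0.4 (−0.91 to 1.7, edgeR adjusted p = 0.999).

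Gsx1, the close relative of Gsx2, did not share this pattern. Its normalized counts were 28.04, 23.68 and 15.39 in the controls, 20.39, 25.54 and 26.85 in Islet1Cre;Ebf1fl/-, and 16.19, 32.78 and 27.72 in Dlx5/6::Cre;Ebf1fl/-. The 3 groups overlapped, and the library highest in Gsx2 was next to the lowest in Gsx1. The ratio of Gsx2 to Gsx1 was 27.5 there and 2 to 3.87 in the other 8. The log2 fold changes of Gsx1 were 0.11 (95% interval −0.67 to 0.89) and 0.2 (−0.56 to 0.96), with edgeR adjusted p values of 0.999 and 0.831 in the Islet1Cre and Dlx5/6::Cre comparisons. Without Control replicate 3 both were below 0, at −0.09 and −0.01, and without Dlx5/6::Cre;Ebf1fl/- replicate 2 the second was −0.02.

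Dlx2, an activator of Dlx5 and Dlx6 and of GABAergic genes, had normalized counts of 1078, 1774 and 1234 in the controls, 1748, 2352 and 1747 in Islet1Cre;Ebf1fl/-, and 6107, 1660 and 1811 in Dlx5/6::Cre;Ebf1fl/-. The first of the last 3 was 2.6 times the highest of the other libraries, and only 3 of 6 mutants were above every control. The log2 fold change in Dlx5/6::Cre;Ebf1fl/- was 1.23 (SE 0.43, 95% interval 0.28 to 2.17, edgeR adjusted p = 0.199), and 0.35 (−0.06 to 0.76, adjusted p = 0.383) without that library. In Islet1Cre;Ebf1fl/- it was 0.52 (−0.43 to 1.46, edgeR adjusted p = 0.963). Per kb, Dlx2 was the most abundant of the 9 genes in Dlx5/6::Cre;Ebf1fl/- replicate 1, at 2139, beside Dlx1 at 1917 and Dlx5 at 1787, whereas in the controls it came after Dlx5, Dlx6, Dlx1 and Dlx6os1. This order depended on the length used, since by the longest transcript Dlx5 (2842) and Dlx1 (2516) were above Dlx2 (2470) in that library.

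Dlx1, its partner in the cluster, had normalized counts of 2568, 3814 and 3835 in the controls, 4584, 5590 and 3932 in Islet1Cre;Ebf1fl/-, and 10350, 4042 and 4493 in Dlx5/6::Cre;Ebf1fl/-. All 6 mutants lay above all 3 controls, the lowest of them by little. The log2 fold changes were 0.46 (SE 0.31, 95% interval −0.23 to 1.16, edgeR adjusted p = 0.897) and 0.89 (SE 0.32, 0.19 to 1.58, adjusted p = 0.206). Without the first Dlx5/6::Cre;Ebf1fl/- library the second was 0.32 (−0.05 to 0.7, edgeR adjusted p = 0.372). The antisense gene Dlx1as had 5208 normalized counts in that library and 1715 to 3106 in the others, and did not pass the test.

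Dlx5 had normalized counts of 1551, 2573 and 2457 in the controls, 3277, 3255 and 2638 in Islet1Cre;Ebf1fl/-, and 4045, 2992 and 3059 in Dlx5/6::Cre;Ebf1fl/-. As with Dlx1, whose pattern over the libraries was similar, all 6 mutants were above every control. Here the first Dlx5/6::Cre;Ebf1fl/- library was only 1.23 times the next. Dlx5 had log2 fold changes of 0.48 (SE 0.18, 95% interval 0.07 to 0.88, edgeR adjusted p = 0.467) and 0.62 (SE 0.18, 0.21 to 1.02, adjusted p = 0.127). Of the 9 genes, Dlx5 had the lowest adjusted p in both comparisons with the controls. Without the library that stood apart the second value was 0.46 (0.08 to 0.85, edgeR adjusted p = 0.202). Without Control replicate 1, the lowest of all for Dlx5, the values were 0.28 and 0.42.

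Dlx6os1 had normalized counts of 2085, 2945 and 2954 in the controls, 3413, 4101 and 3062 in Islet1Cre;Ebf1fl/-, and 6170, 3229 and 3623 in Dlx5/6::Cre;Ebf1fl/-. As for Dlx1 and Dlx5, the mutants and the controls did not overlap. For Dlx6os1 the log2 fold changes were 0.41 (SE 0.23, 95% interval −0.1 to 0.91, edgeR adjusted p = 0.8) and 0.71 (SE 0.23, 0.2 to 1.21, adjusted p = 0.163). Without the first Dlx5/6::Cre;Ebf1fl/- library the second was 0.36 (0.03 to 0.7, edgeR adjusted p = 0.252). The short RNA under the same symbol had 137.1 normalized counts in that library and 8.141 to 29.8 in the other 8.

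Dlx6, the gene that Dlx6os1 overlaps, spanned only 1.48 times over the 9 libraries. Its normalized counts were 1946, 1797 and 2121 in the controls, 2499, 1934 and 2081 in Islet1Cre;Ebf1fl/-, and 2081, 2025 and 2661 in Dlx5/6::Cre;Ebf1fl/-. The groups overlapped, and the library that stood apart, at 2081, lay in the middle of them. Dlx6 had log2 fold changes of 0.15 (95% interval −0.13 to 0.43, edgeR adjusted p = 0.969) and 0.21 (−0.07 to 0.48, adjusted p = 0.456). The ratio of Dlx6os1 to Dlx6 was 2.96 in the first Dlx5/6::Cre;Ebf1fl/- library and 1.07 to 2.12 in the other 8.

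Hes5, a repressor induced by Notch, had normalized counts of 526.4, 413.2 and 349.2 in the controls, 433.6, 351.2 and 422.4 in Islet1Cre;Ebf1fl/-, and 625, 554.5 and 416.6 in Dlx5/6::Cre;Ebf1fl/-. The groups overlapped. Hes5 had log2 fold changes of −0.10 (95% interval −0.52 to 0.32, edgeR adjusted p = 0.999) and 0.31 (−0.11 to 0.72, adjusted p = 0.461).

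Dll1, a Notch ligand of committed precursors, had normalized counts of 995, 964.5 and 954.3 in the controls, 886.1, 955.6 and 975.4 in Islet1Cre;Ebf1fl/-, and 1397, 979.8 and 911.6 in Dlx5/6::Cre;Ebf1fl/-. Apart from the 1397 of the first Dlx5/6::Cre;Ebf1fl/- library, the values spanned only 1.12 times. The log2 fold changes were −0.05 (95% interval −0.37 to 0.27, edgeR adjusted p = 0.999) and 0.17 (−0.14 to 0.49, adjusted p = 0.595). The second was −0.04 (−0.23 to 0.15, edgeR adjusted p = 0.859) without that library.

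Set against each other, the mutants differed most in Gsx2, with a log2 fold change of 1.38 in Dlx5/6::Cre;Ebf1fl/- over Islet1Cre;Ebf1fl/- (95% interval 0.11 to 2.66, edgeR adjusted p = 0.868) that became 0.06 without the library that stood apart. Those of Dlx1, Dlx2, Dlx5 and Dlx6os1 ran from 0.14 to 0.71 and turned negative without it, from −0.17 to −0.02. The adjusted p values of all 9 genes were at least 0.868 in this comparison.

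**Figure D2:**
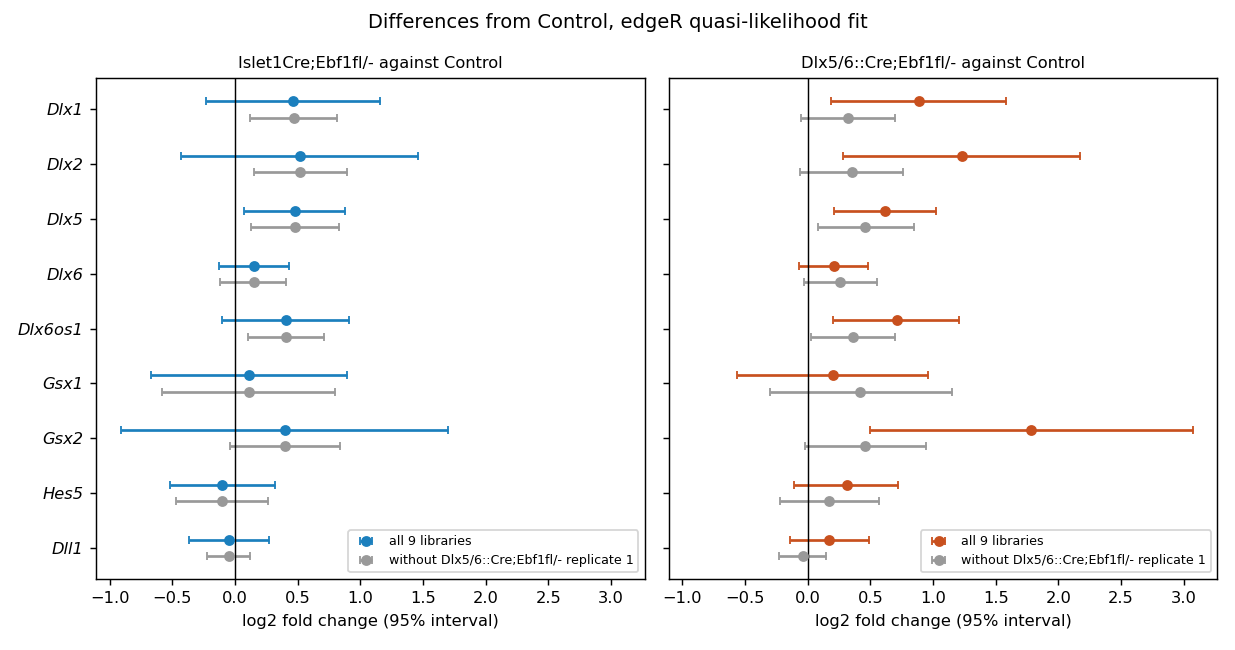
Log2 fold change against Control (horizontal axis, 95% intervals) of the 9 genes in the edgeR fit, in colour with all 9 libraries and in grey without Dlx5/6::Cre;Ebf1fl/- replicate 1. In the right panel Gsx2 moves from 1.78 to 0.46 and Dlx2 from 1.23 to 0.35, whereas Dlx5 moves from 0.62 to 0.46.

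Whether a member passed depended on the tool. Against the controls, DESeq2's Wald test called 3 of the 9 genes in Dlx5/6::Cre;Ebf1fl/- (5.6% of all genes), Gsx2, Dlx5 and Dlx6os1, with DESeq2 adjusted p values of 0.0209, 0.0236 and 0.0316. The edgeR test with no filter on low counts called 5 (2.67% of all genes), those 3 and Dlx1 and Dlx2. Without the library that stood apart, edgeR with its filter called 0 of the 9 in either comparison (2.38% of all genes in Islet1Cre;Ebf1fl/- and 3.68% in Dlx5/6::Cre;Ebf1fl/-). The unadjusted p values of Dlx1, Dlx2, Dlx5 and Dlx6os1 in Islet1Cre;Ebf1fl/- were then 0.0108 to 0.013 by edgeR, with adjusted p values of 0.202 to 0.22. With no filter, the same libraries gave 4 calls in each comparison (3.5% and 5.97% of all genes), namely these 4 Dlx transcripts, and DESeq2 called Dlx2 alone in Islet1Cre;Ebf1fl/- (adjusted p = 0.042, 3.77% of all genes) and none in Dlx5/6::Cre;Ebf1fl/-.

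Markers of other cells moved with Gsx2, Dlx1, Dlx2 and Dlx6os1 in Dlx5/6::Cre;Ebf1fl/- replicate 1. Summed per kb, 6 markers of dividing cells reached 1970 there against 350 to 563 in the other 8 libraries, with Mki67 at 3540 normalized counts against 464.6 to 987.5. The 6 radial glia markers reached 20500 against 10100 to 14500. The list of ventral precursors, which holds Dlx1 and Dlx2 themselves, reached 6690 against 1430 to 2470. The 6 markers of cortical excitatory neurons summed to 1670 against 271 to 880, with 681 and 880 in the other Dlx5/6::Cre;Ebf1fl/- libraries and 289 to 699 in the controls. In contrast, 8 SPN markers summed to 9730 against 11300 to 13800, and 6 markers of interneurons from the medial ganglionic eminence to 6130 against 8770 to 13500. Of these, 5 of 8 SPN markers were lowest there, as were the interneuron markers Lhx6, Sst and Npy, whereas Maf and Sox6 were highest there, at 644.4 and 917.5 normalized counts. The part of these cells in the values of the 9 genes was not tested. The sums of the microglia, endothelium, oligodendrocyte precursor and blood markers lay within the range of the other libraries, although C1qa and Cdh5 were highest there (270.9 against at most 251.3, and 408 against at most 395.4). Of the choroid plexus markers, Folr1 and Kcnj13 were at 0 in this library and at most 1.809 and 1.419 normalized counts in the others. Ttr had 5.397 against 0 to 14.95, and Clic6 was lowest there, at 58.29 against 74.2 to 232.7.

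**Figure D3:**
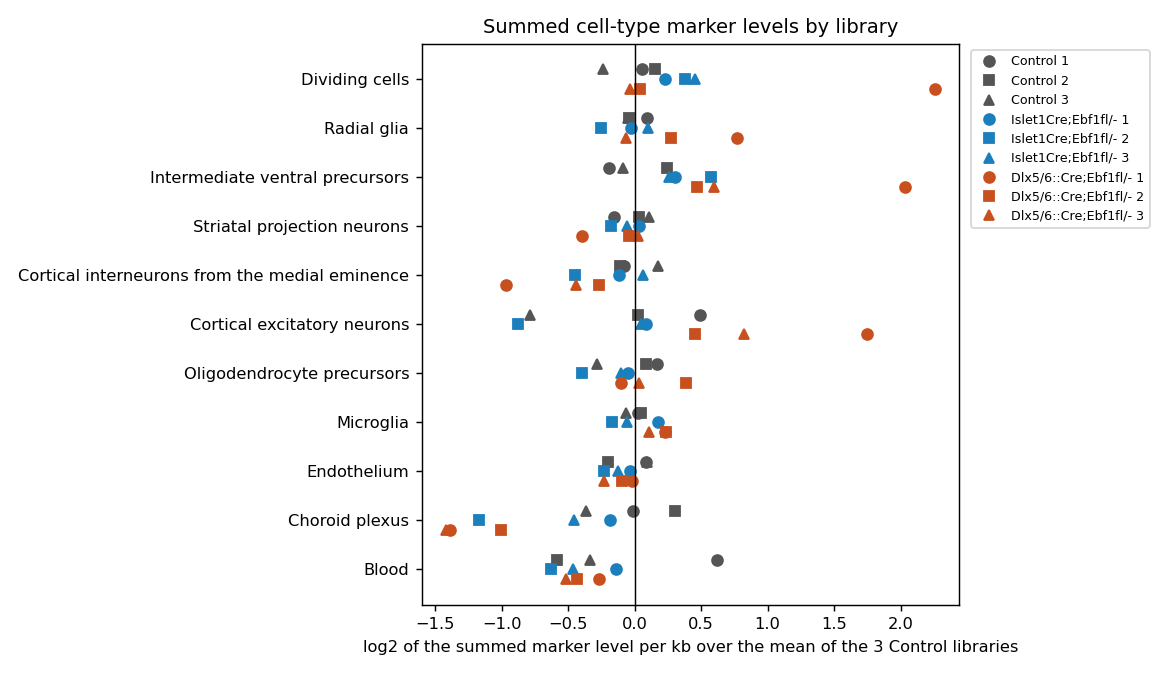
Summed level per kb of each marker list in each library, as log2 of its ratio to the mean of the 3 controls (horizontal axis); colours give the genotype and shapes the replicate. Dlx5/6::Cre;Ebf1fl/- replicate 1 lies far to the right for dividing cells (1970 against at most 563 elsewhere) and to the left for SPN (9730 against at least 11300).

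SPN markers were present in every library, as the tissue label requires, with Bcl11b at 19850 to 26470 normalized counts. Foxp1 and Clic6 passed the edgeR test against the controls, both lower in Dlx5/6::Cre;Ebf1fl/-, Foxp1, a factor of SPN, with a log2 fold change of −0.53 (adjusted p = 0.0305), and Clic6, listed for choroid plexus, with −1.33 (adjusted p = 0.037). Without the library that stood apart they were −0.43 and −1.19 and still passed (adjusted p = 0.0319 and 0.048), but the call was lost in 7 of 9 fits that left out 1 library for Foxp1 and in 5 of 9 for Clic6. Both calls were also lost with only the 6 samples (adjusted p = 0.0942 and 0.0661) and with the embryo code prefix (described with Gadd45g) as a covariate (−0.66, adjusted p = 0.148, and −0.90, adjusted p = 0.623).

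The wider Notch pathway was taken as a list of 29 further genes, of which 28 were tested and Dlk1 had 0 counts in all libraries. None of the 28 passed in any comparison by edgeR with all libraries, and DESeq2 called Hey1 and Jag2 among them. At an unadjusted p value below 0.05 there were 1, 6 and 2 genes by edgeR, in the order Islet1Cre, Dlx5/6::Cre and between the mutants, where 7.93%, 15.5% and 5.16% of all genes did. The median log2 fold changes were −0.05, 0.05 and 0.12, against −0.002, 0.011 and 0.012 over all genes. Without the library that stood apart they were −0.05, −0.06 and −0.07. In Dlx5/6::Cre;Ebf1fl/- the median of the receptors went from 0.17 to −0.41 and that of the targets from 0.1 to −0.16 when it was left out, whereas that of the ligands was below 0 in both fits, at −0.24 and −0.45. Among the receptors, Notch1 had 2477 normalized counts in the library that stood apart and 754.9 to 975.4 in the others, and Notch2 had 1056 against 216.1 to 445.9. Of the glycosyltransferases that tune receptors, Mfng had 1439 against 298.2 to 589.7, whereas Rfng was lowest there, at 2742 against 3072 to 3907. Of the targets, Nrarp had 1277 against 503.7 to 792.4 and Hes1 had 245 against 75.98 to 145. Hey2 was lowest there, at 45.34 against 62.88 to 113.8, as was Psen2, at 292.5 against 313.2 to 486.7. Heyl and Notch4 lay within the range of the other libraries.

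Hey1, another repressor downstream of Notch, had lower counts in the mutants than in the controls but did not pass by edgeR with all libraries. Its normalized counts were 645.8, 642.7 and 617.6 in the controls, 458, 390.9 and 426 in Islet1Cre;Ebf1fl/-, and 565.6, 423.4 and 371.8 in Dlx5/6::Cre;Ebf1fl/-, so that all 6 mutants were below every control. The share of all genes with every mutant below every control was not computed, and Hey1 was singled out after its values were seen. The log2 fold changes were −0.59 (edgeR adjusted p = 0.136) and −0.49 (adjusted p = 0.14). Without the library that stood apart Hey1 passed in both, at −0.59 (edgeR adjusted p = 0.00993) and −0.68 (adjusted p = 0.00689), as it did with DESeq2 on all libraries (adjusted p = 0.0181 and 0.0461), which also called Jag2 in Dlx5/6::Cre;Ebf1fl/-. By edgeR the ligand Jag2 passed as well in Dlx5/6::Cre;Ebf1fl/- without that library, at −0.47 (edgeR adjusted p = 0.0498), having been −0.41 (adjusted p = 0.0895) with it. Among the other fits tried, the edgeR adjusted p values reached 0.514 and 0.766 for Hey1, and 0.732 for Jag2 in Dlx5/6::Cre;Ebf1fl/-. The other 26 genes passed in no comparison with or without the library by edgeR.

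**Figure D4:**
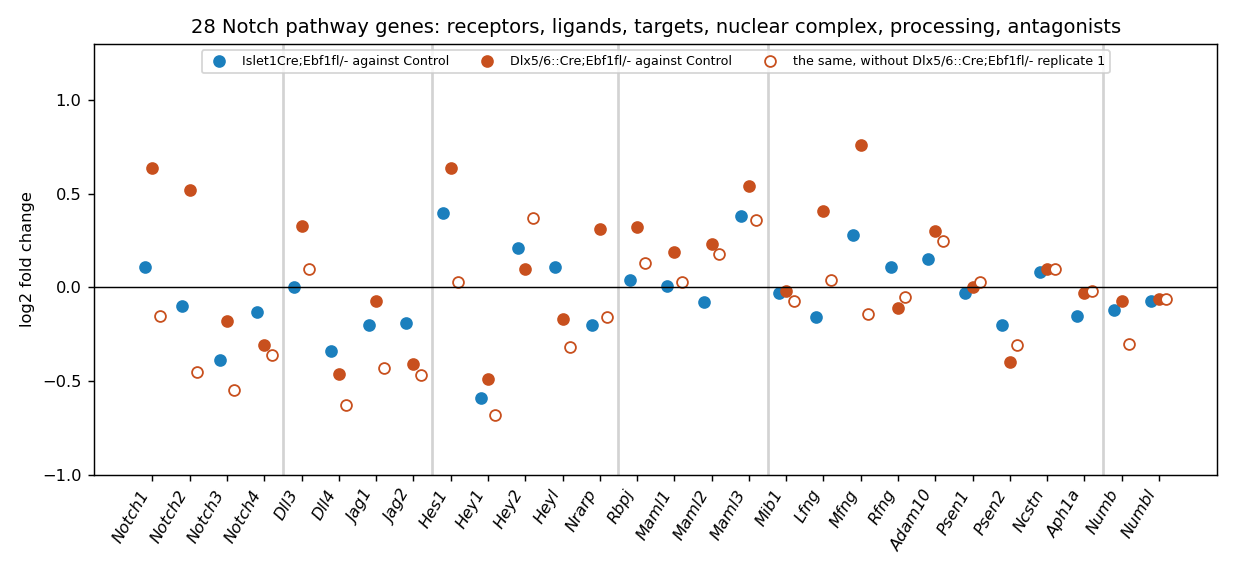
Log2 fold change against Control (vertical axis) of the 28 tested Notch pathway genes, grouped by role; open circles leave out Dlx5/6::Cre;Ebf1fl/- replicate 1. Hey1 lies at −0.59 and −0.49 and moves to −0.68 without that library, whereas Notch1 lies at 0.64 with it and below 0 without it.

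Of 15 further transcription factors and regulators of ventral progenitors and precursors, 14 were tested and only Gadd45g passed by edgeR with all libraries. DESeq2 also called Isl1, which was lower in Dlx5/6::Cre;Ebf1fl/- than in the controls (log2 fold change −0.4, edgeR adjusted p = 0.0817). Gadd45g, a growth-arrest gene expressed in early neuronal precursors, had normalized counts of 264.1, 246.6 and 189.5 in the controls, 265, 246.9 and 295.3 in Islet1Cre;Ebf1fl/-, and 1606, 687.5 and 746.9 in Dlx5/6::Cre;Ebf1fl/-. All 3 Dlx5/6::Cre;Ebf1fl/- embryos were more than 2-fold above every other embryo. Its log2 fold change against the controls was 2.11 (SE 0.3, 95% interval 1.46 to 2.77, edgeR adjusted p = 0.00498), and 1.62 (adjusted p = 0.000354) without the library that stood apart. Against Islet1Cre;Ebf1fl/- it was 1.92 (95% interval 1.27 to 2.57, unadjusted p = 5.1e-05, edgeR adjusted p = 0.835), and 1.42 (adjusted p = 0.00788) without that library; DESeq2 called it in both comparisons with all libraries. The prefix of the embryo code was IE for all Islet1Cre;Ebf1fl/- embryos and 2 controls and D for the rest. It is partly confounded with genotype against the controls. Between the mutants it is fully confounded, so that prefix and genotype cannot be told apart in the Gadd45g difference between them. With the prefix as a covariate the value against the controls was 2.42 (edgeR adjusted p = 0.0991). Only 1 control, replicate 3, had the prefix D, and it held both Xist and Y-linked transcripts. Its Gadd45g value was 189.5, and the cause of the Gadd45g difference was not tested.

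The median log2 fold change of the 14 factors in Dlx5/6::Cre;Ebf1fl/- was 0.42, and 0.11 without the library that stood apart, where edgeR called 1 higher and 1 lower. With all libraries the other 13 factors did not pass by edgeR, and several followed Gsx2 in the library that stood apart. Sp8 had 942.3 normalized counts there against 67.67 to 134.8 elsewhere, Pax6 had 1050 against 127.2 to 249.7, and Insm1 had 2336 against 456.9 to 755.4. Nkx2-1, the factor of the medial ganglionic eminence, had its lowest value there, 465.2 against 537.7 to 1412. The GABAergic genes Gad1, Gad2 and Slc32a1 did not pass by edgeR or DESeq2, with log2 fold changes of 0.03 to 0.23 against the controls.

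Across the 9 libraries, Dlx1 and Dlx6os1, which lie on different chromosomes, had the closest pattern of any pair of members, with Pearson's r = 0.99 of log2 normalized counts, and the same r without the library that stood apart. These correlations describe libraries that share genotype and tissue composition, and carry no test. Dlx1 and Dlx2 had r = 0.97, and 0.89 without that library, whereas the neighbours Dlx5 and Dlx6 had 0.33 and 0.41. Dll1 and Gsx2 had r = 0.88 with that library and −0.55 without it. Among 12043 genes with a mean normalized count of at least 100, those most like Dlx2 were Tcf12 (r = 0.984), an E-protein partner of proneural factors, Spg20 (0.983) and Glcci1 (0.98). Those most like Gsx2 were Zfp664 (0.99), Spg20 and Cenpm (both 0.988), a centromere protein. Those most like Hes5 were Zcchc24 (0.971), Ckb (0.948) and Cd9 (0.938). Without the first Dlx5/6::Cre;Ebf1fl/- library these r values were 0.92 to 0.96 for Dlx2, 0.83 to 0.88 for Gsx2 and 0.91 to 0.95 for Hes5.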

How the data were processed

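For each embryo the authors deposited a file of raw counts by Ensembl gene. According to the labels and the methods of the study, poly N tails were trimmed, short and low-quality reads were removed, the rest were mapped to mm10 with STAR 2.4.0k, reads with more than 1 position were discarded, and counts on Ensembl 81 genes were made with HTSeq 0.5.3. Discarding such reads can lower genes with close copies. Here edgeR 4.0.16 in R 4.3.3 was fitted to all 9 libraries and 3 groups, with TMM scaling, filterByExpr at a minimum count of 10, the two-sided quasi-likelihood test and Benjamini-Hochberg adjustment over 16368 genes, with a threshold of 0.05. Normalized counts use DESeq2 1.42.0 size factors, and lengths use GENCODE M21. The p values measure the spread between libraries, each described as 1 embryo. Control replicate 3 and Islet1Cre;Ebf1fl/- replicate 3 held both Xist and Y-linked transcripts, so whether each is a single embryo was not settled. An exact permutation test of 3 against 3 cannot reach 0.05 and was not used. The 9 genes, the marker and pathway lists and the tests were chosen with earlier results of these data known. Named were the 9 genes, list genes that passed or exemplify a role, and the 3 genes most like Dlx2, Gsx2 and Hes5; Hey1 and Jag2 were singled out after their values were seen. On data simulated for the Dlx5/6::Cre;Ebf1fl/- comparison with 16166 genes and 200 changed, 93% of 4-fold and 68% of 2-fold changes were recovered, with 7.47% of calls false. In the simulation each gene varied independently and no library stood apart as Dlx5/6::Cre;Ebf1fl/- replicate 1 did. These rates therefore need not hold for the real libraries. Libraries of 1 group differed by more than counting error (lowest chi-square over its degrees of freedom 10.8). Other tools, filters, scalings, sample sets, a replicate block, the embryo code prefix and each library left out were tried. Some genes of the lists are not reported here. Adjusted p values that DESeq2 gave as NA stayed NA.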

Additional observations from a re-analysis of the deposited data

How the results depend on the processing

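With 3 embryos a genotype and 1 library apart, counts of calls moved with the fit. Genes called in Islet1Cre;Ebf1fl/- against Control numbered 401 with DESeq2, 311 with no filter, 259 with only the 6 samples, 61 with the embryo code prefix and 15 to 397 with 1 library left out, the highest without Dlx5/6::Cre;Ebf1fl/- replicate 1. In Dlx5/6::Cre;Ebf1fl/- against Control they numbered 862, 708, 181, 32 and 143 to 613, and between the mutants 18, 13, 2, 1 and 0 to 4. Without that library, in fits added after seeing the data, DESeq2 called 615, 979 and 16 genes and edgeR with no filter 925, 1578 and 240. Of the 9 genes, DESeq2 called 3 and edgeR with no filter 5 in Dlx5/6::Cre;Ebf1fl/-; without that library DESeq2 called 1 in Islet1Cre;Ebf1fl/-, and edgeR with no filter 4 in each comparison with the controls and 0 between the mutants. The cause was not tested.

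No direction of a called value turned. Values near 0 did, in Islet1Cre;Ebf1fl/- for Gsx1 (−0.09 with the prefix, −0.09 to 0.3 with 1 library left out) and Hes5 (−0.23 to 0.07), and in Dlx5/6::Cre;Ebf1fl/- for Gsx1 (−0.02 to 0.42) and Dll1 (−0.04 to 0.28, and −0.04 without the library apart by DESeq2 or with no filter). Between the mutants the ranges with 1 library left out were −0.14 to 0.66 for Dlx1, −0.17 to 1.02 for Dlx2, −0.02 to 0.22 for Dlx5, −0.09 to 0.17 for Dlx6, −0.04 to 0.47 for Dlx6os1, −0.13 to 0.32 for Gsx1 and −0.09 to 0.21 for Hey1. Without the library apart, DESeq2 gave −0.14, −0.17, −0.02, −0.04 and −0.09 for Dlx1, Dlx2, Dlx5, Dlx6os1 and Hey1, and edgeR with no filter gave −0.14, −0.17, −0.01, −0.04 and −0.09. With the prefix, which links the mutants through the controls alone, Dlx5 and Dlx6 were at −0.11 and −0.12. By the longest transcript, control levels per kb were 1540 for Dlx5, 828 for Dlx1 and 271 for Dll1. By Spearman's rho, Tcf12, Spg20 and Glcci1 had 0.8, 0.78 and 0.73 with Dlx2.

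Deviations from the group means did not go together in embryos of equal number (mean r = −0.02 over 9 pairs, −0.22 to 0.16), so the numbers were not taken as pairs. With a replicate block, 143, 363 and 0 genes were called, none of the 9 among them, and of the other named genes only Clic6 lost its call (adjusted p = 0.0712).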
